A study of Mus musculus with 4 samples.

Results

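The platelet-derived growth factor (PDGF) ligands and receptors were followed in myogenic cells of regenerating mouse muscle. The members are the genes Pdgfa, Pdgfb, Pdgfc, Pdgfra and Pdgfrb, taken as all probe sets whose platform annotation gives that symbol alone. They number 5 of 12394 named genes and 10 of 22690 probe sets, with 2 probe sets for each gene. The cells came from C57BL/6 mice of 8 to 12 weeks whose hind-limb muscle had been injected with cardiotoxin, which kills muscle fibres and so starts their regeneration. They were prepared without culture 2, 3, 5 or 14 days after the injection, and each day was measured on 1 Affymetrix mouse 430A array. All 4 groups are injured muscle, and no group of uninjured muscle was analysed here. An antibody, SM/C-2.6, is cited in the labels, which leave the number of animals per array unsaid. The labels of days 2 and 5 share one wording and those of days 3 and 14 another, and no source used here says whether the arrays of a pair were run together.

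PDGF chains are secreted as dimers and bind receptor tyrosine kinases at the cell surface. The A, B and C chains bind the receptor encoded by Pdgfra, and the B chain also binds the one encoded by Pdgfrb. The A and B chains are cut to their active form inside the cell, whereas the C chain is released with an inhibitory CUB domain that proteases such as tissue plasminogen activator remove outside it. In skeletal muscle, Pdgfra is widely used as a marker of fibro-adipogenic progenitors and Pdgfrb as a marker of pericytes. Both receptors drive growth and migration of mesenchymal cells.

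Promoter sequences are shown for the 3 of 5 members that have an entry in the promoter table of build GRCm38.p6. These are Pdgfa, Pdgfc and Pdgfra, and the windows let their starts be compared. By the brighter probe set of each gene, all 3 read higher on days 5 and 14 than on days 2 and 3, as did Pdgfrb, which has no entry. Pdgfc lies on chromosome 3 and both Pdgfa and Pdgfra on chromosome 5. Pdgfb and Pdgfrb are named only. Each window holds 300 bases around an annotated start, 5′ to 3′ on the gene's strand, and Pdgfa has 2 such starts. Capitals mark the GC box GGGCGG and the E box CANNTG, each searched on both strands.
Pdgfc promoter, chr3:81036166-81036465, plus strand: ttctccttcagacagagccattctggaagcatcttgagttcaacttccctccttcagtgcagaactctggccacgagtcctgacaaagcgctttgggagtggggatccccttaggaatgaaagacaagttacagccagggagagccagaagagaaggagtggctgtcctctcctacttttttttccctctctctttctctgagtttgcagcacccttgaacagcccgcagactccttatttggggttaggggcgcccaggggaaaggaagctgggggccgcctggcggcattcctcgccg
Pdgfra promoter, chr5:75152001-75152300, plus strand: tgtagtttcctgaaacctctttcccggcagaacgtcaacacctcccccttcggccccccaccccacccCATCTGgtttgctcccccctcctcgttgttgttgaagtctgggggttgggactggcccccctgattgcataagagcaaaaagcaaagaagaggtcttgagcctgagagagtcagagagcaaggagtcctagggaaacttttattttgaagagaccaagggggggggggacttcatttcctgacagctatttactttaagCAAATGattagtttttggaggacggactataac
Pdgfa promoter, chr5:138994232-138994531, minus strand: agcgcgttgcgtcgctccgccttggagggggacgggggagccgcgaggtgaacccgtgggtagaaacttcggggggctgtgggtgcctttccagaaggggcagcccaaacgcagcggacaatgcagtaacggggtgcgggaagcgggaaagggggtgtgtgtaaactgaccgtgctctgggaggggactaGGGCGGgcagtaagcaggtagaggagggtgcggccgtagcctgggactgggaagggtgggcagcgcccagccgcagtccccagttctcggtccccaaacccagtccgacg
Pdgfa promoter, chr5:138994895-138995194, minus strand: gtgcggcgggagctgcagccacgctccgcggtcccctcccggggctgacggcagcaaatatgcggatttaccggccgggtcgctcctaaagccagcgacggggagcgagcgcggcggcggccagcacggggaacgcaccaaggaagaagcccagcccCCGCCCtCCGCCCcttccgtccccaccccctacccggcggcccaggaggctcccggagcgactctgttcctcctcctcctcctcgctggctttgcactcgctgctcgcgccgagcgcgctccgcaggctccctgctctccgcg

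The windows share no marked motif. The GC box was found in both Pdgfa windows, with 1 match in the window at the lower coordinates and 2 in the other, and in neither of the Pdgfc and Pdgfra windows. The E box, a core bound by basic helix-loop-helix factors, had 2 matches in the Pdgfra window alone. Of the 32851 promoter windows of this length in the table, 35.7% held a GC box and 72.3% an E box. The TATA box TATAAA, found in 13.6% of all windows, and the EGR sites GCGTGGGCG and GCGGGGGCG, found in 0.612% and 2.91%, had no match in any of the 4. The EGR sites and the GC box can overlap in GC-rich sequence. The GC content was 67.0% and 73.3% in the Pdgfa windows, 55.0% for Pdgfc and 51.0% for Pdgfra, against a median of 52.7% over all windows. A match describes the letters and is no evidence of binding, and a missing match says only that these letters are not in the window.

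Signals below are MAS5 signals in arbitrary units, scaled so that the 4 arrays share a trimmed mean. Signals below 43.0, the pooled median, were raised to this floor before ratios were taken. A call of higher or lower needed a ratio of at least 2-fold between 2 arrays. Ratios with 1 side at the floor are lower bounds, and genes under it on both arrays are given as not measured. There is no replicate, so no difference has a test or an error from replicates. The spread of log2 ratios between probe sets of the same gene gives the only scale of error, with SDs of 0.36, 0.37 and 0.32 at the 3 steps, day 3 against day 2, then day 5 against day 3, then day 14 against day 5. Spread between animals, or between labellings of one RNA, is not in it. Of the probe sets of a gene, the brighter one on average over the arrays represents it, and levels are not compared between probe sets.

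Facts of the whole series bear on these low-signal genes. Over days 2, 3, 5 and 14 the scaled median was 29.5, 41.7, 49.1 and 52.8, and the share of probe sets above the floor was 45.0%, 49.5%, 52.0% and 53.5%. Genes of low signal thus tended to read higher on the later arrays. The median log2 ratio of all measured genes was 0.06, 0.06 and 0.01 at the same 3 steps. With the values as deposited it was -0.12, 0.33 and -0.08, and changes of the members under that scaling are to be read against those shifts. As a sign of RNA length, Gapdh probe sets gave 3′ to 5′ ratios of 2.17, 1.88, 2.87 and 2.84 on days 2, 3, 5 and 14, and those of Actb gave 1.80, 2.20, 2.19 and 2.14.

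Among the ligands, Pdgfc moved most. Its representing probe set (1449351_s_at) read 31.4, 82.8, 1455 and 801 on days 2, 3, 5 and 14. The other probe set (1419123_a_at) read 33.2, 40.6, 1082 and 489 on the same days. Both thus lay at or near the floor on days 2 and 3 and far above it on days 5 and 14, with the highest value on day 5.

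Day 5 exceeded day 3 for Pdgfc by 17.6-fold in the representing probe set, a log2 ratio of 4.13, and by at least 25.2-fold in the other. The ratio of the representing probe set was rank 7 from the top among 7523 measured genes. Against day 2, Pdgfc was at least 33.9-fold higher on day 5 and at least 18.6-fold higher on day 14. From day 5 onward the signal was lower again: day 14 stood at 0.55 of the day 5 value in the representing probe set, short of a call, and was 2.21-fold lower in the other, past it. Only 4.58% of measured genes had a lower log2 ratio than Pdgfc in that comparison, where its value was -0.86. Between days 3 and 2 the ratio was at least 1.93-fold by the representing probe set, while the other lay under the floor on both days.

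Pdgfa, the chain that acts through the alpha receptor, was above the floor on every array. Its representing probe set (1418711_at) read 403, 275, 716 and 589.7 on days 2, 3, 5 and 14. The other probe set (1449187_at) read 156, 168, 249 and 219. In both, days 5 and 14 lay above days 2 and 3, but the probe sets differ in the order of days 2 and 3 and in size.

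For day 5 against day 3, Pdgfa was 2.60-fold higher by the representing probe set and 1.49-fold by the other, so the call rests on 1 of the 2. The ratio of day 3 to day 2 had a log2 of -0.55 by the first and 0.10 by the second. For day 14 against day 5 both were below 0, at -0.28 and -0.19, within the SD between probe sets. Against day 3, Pdgfa was 2.14-fold higher on day 14 by the representing probe set and 1.30-fold by the other.

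Pdgfb, the chain that binds both receptors, lies on chromosome 15 and took another course. Its representing probe set (1450414_at) read 101, 213, 134 and 74.0 on days 2, 3, 5 and 14. The other (1450413_at) lay under the floor on all 4 arrays, at 21.9, 32.3, 23.4 and 37.3, and gave no ratio. By the first, day 3 was the highest and day 14 the lowest, the only member with that order.

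Pdgfb was 2.11-fold higher on day 3 than on day 2, just past a call. It missed 2-fold at the next step, with a log2 ratio of -0.67 between days 5 and 3, and again at the last, with -0.85 between days 14 and 5. Over both steps, day 14 against day 3, it was 2.88-fold lower and the only member called lower in any of the 6 comparisons by its representing probe set. The array also holds 1 probe set of Pdgfd, the ligand of the beta receptor that is not a member here. It was far under the floor on each array, with a highest signal of 0.907 on day 3.

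Of the receptors, Pdgfrb had the larger signal ratios; its gene lies on chromosome 18. Its representing probe set (1436970_a_at) read 14.8, 66.7, 322 and 236 on days 2, 3, 5 and 14. The other probe set (1417148_at) read 1.30, 23.6, 144 and 133. Both gave the lowest value on day 2 and the highest on day 5, with day 14 next to it.

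Day 5 exceeded day 3 for Pdgfrb by 4.82-fold in the representing probe set, which placed it at rank 111 of 7523 measured genes. In the other probe set the ratio was at least 3.36-fold. For day 3 against day 2 the bound was at least 1.55-fold, short of a call. Day 14 against day 5 gave log2 ratios of -0.45 and -0.12 in the probe sets, the second within the SD between probe sets. Against day 2, Pdgfrb was at least 7.49-fold higher on day 5 and at least 5.49-fold higher on day 14.

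Pdgfra, the receptor shared by the A, B and C chains, had low signals throughout. Its representing probe set (1421917_at) read 11.1, 41.7, 105 and 104 on days 2, 3, 5 and 14. The other (1421916_at) read 4.88, 20.5, 30.8 and 18.2 and never reached the floor. The first places days 5 and 14 above the floor at nearly the same value and days 2 and 3 under it, and the second gives no ratio.

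Pdgfra was at least 2.45-fold higher on day 5 than on day 3, and at least 2.42-fold higher on day 14 than on day 3. The day 3 signal of 41.7 lay just under the floor of 43.0. Days 14 and 5 differed by a log2 ratio of -0.02, far within the SD between probe sets. With the floor doubled the day 5 bound dropped to a log2 ratio of 0.29, which is not a call.

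**Figure D1:**
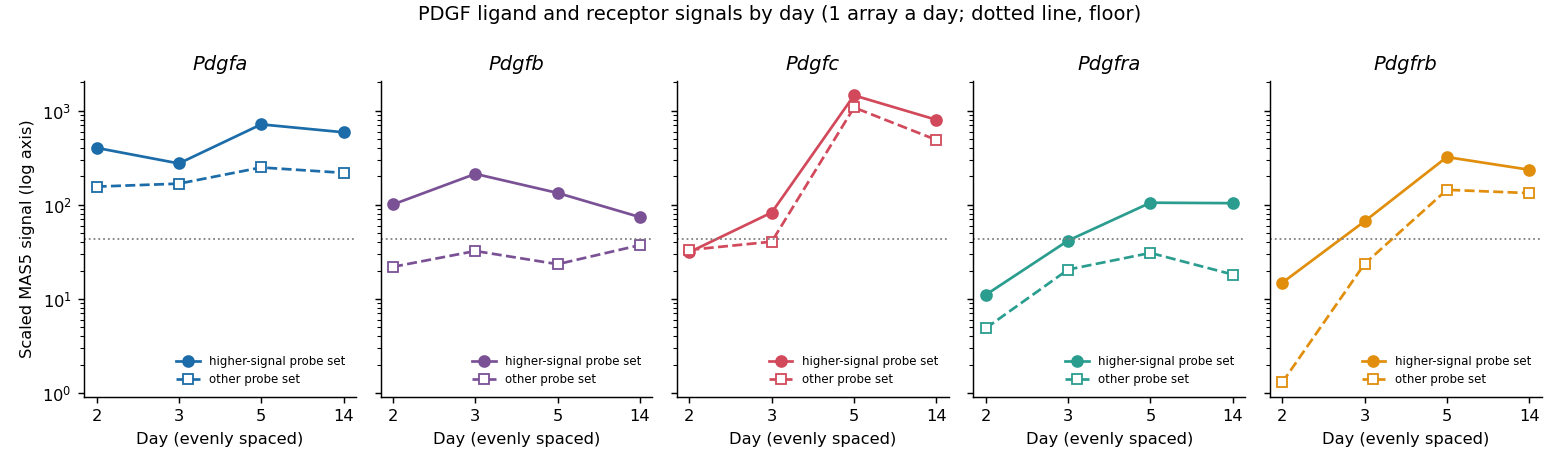
Scaled MAS5 signal (log axis) of the 10 PDGF probe sets on days 2, 3, 5 and 14 after cardiotoxin, with 1 array a day; filled circles are the representing probe set, open squares the other, and the dotted line is the floor of 43.0. By the representing probe sets, Pdgfc reached 1455 on day 5, Pdgfrb and Pdgfra had their low values on days 2 and 3, and Pdgfb had its highest on day 3.

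The counts over the 5 genes were as follows. Day 3 against day 2 had 1 of 4 measured members called, Pdgfb, which was higher. Of 6991 measured genes, 8.50% were called at that step, 6.69% higher and 1.80% lower. For day 5 against day 3, 4 of 5 members were called higher and none lower, and Pdgfb was not past 2-fold. Over 7523 measured genes 17.6% were called at that step, 11.6% higher and 5.97% lower. For day 14 against day 5 no member was called, beside 7.91% of 7709 measured genes, 4.81% higher and 3.10% lower. The median log2 ratio of the measured members was 0.79, 1.38 and -0.45 at these steps, bounds included, beside 0.06, 0.06 and 0.01 over all measured genes.

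Both comparisons with day 2 called the same 3 members. Day 14 against day 2 and day 5 against day 2 each had 3 of 5 members called higher, Pdgfc, Pdgfra and Pdgfrb, and none lower. Against day 2, the share of measured genes called on day 14 was 37.6% of 7668, with 22.8% higher and 14.8% lower, and on day 5 it was 31.1% of 7445, with 19.8% higher and 11.4% lower. Day 14 against day 3 had all 5 called, 4 higher and Pdgfb lower. There the share was 27.9% of 7774 measured genes, with 16.3% higher and 11.5% lower. Comparisons with an array in common are not separate evidence. Day 5 against day 3 and the other comparisons that cross the label wordings cannot tell day apart from any difference between the label sets. Day 5 against day 2 and day 14 against day 3 each stay within a wording and share no array. In both of them Pdgfc, Pdgfra and Pdgfrb were called higher, 3 of 5 members, as were 10.5% of 7289 genes measured in both. Lower in both were 0 members and 6.21% of those genes.

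Grouped by time, days 5 and 14 both lay above days 2 and 3 for 4 members, Pdgfb being the exception, and for 37.2% of the 7930 genes that reached above the floor anywhere. With a gap of at least 2-fold this held for Pdgfc, Pdgfra and Pdgfrb, and for 7.57% of those genes.

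**Figure D2:**
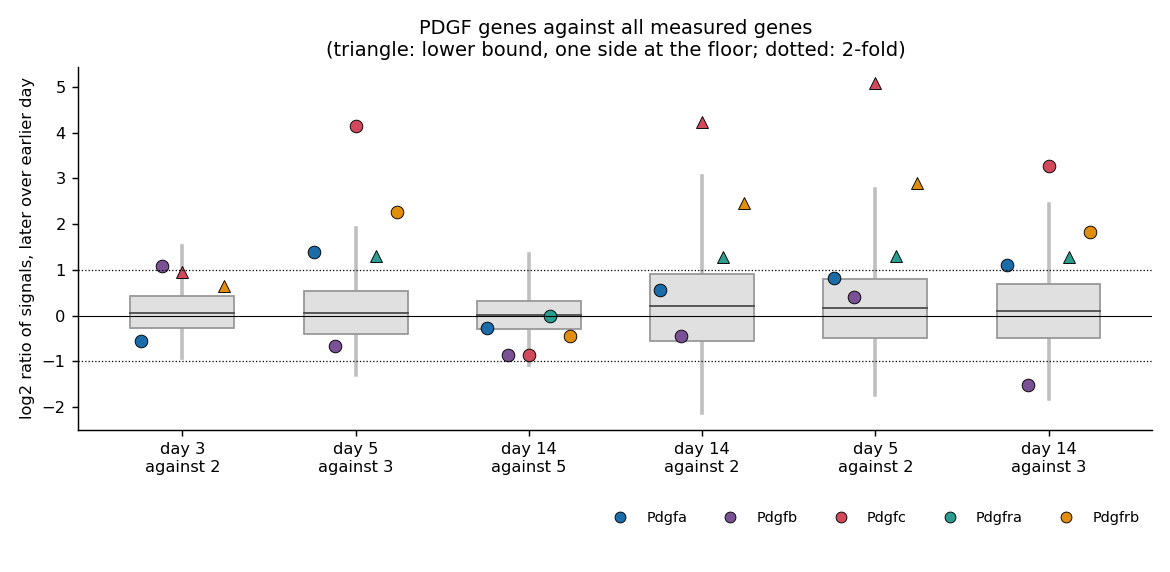
log2 ratio of signals, later over earlier day, of the PDGF genes (coloured points; triangles are lower bounds) in the 6 comparisons of arrays, over all measured genes (box, quartiles of genes with the median; grey line, central 95% of genes). Pdgfc stands above the grey line in the 5 against 3 and in each longer comparison, and no member passes the dotted 2-fold lines for day 14 against day 5.

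Other genes of the pathway were read from lists chosen by their role, and their counts are to be read beside the shares of all measured genes called at each step, 8.50%, 17.6% and 7.91%. The list of activation and availability holds 18 proteases, co-receptors and binding proteins, all on the array. Day 3 against day 2 had 5 calls among 12 measured genes, all higher, and the median log2 ratio was 0.76. For day 5 against day 3 these were 5 of 13 and none, with a median of 0.55. For day 14 against day 5 no gene of 14 was called, with a median of -0.05.

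Plat, which encodes the tissue plasminogen activator that frees PDGF-C from its CUB domain, was among them. It read 57.5 on day 2 and 119 on day 3, a 2.07-fold difference that is a call, and on day 5 it was 7.28-fold higher than on day 3, at 868. Plat and Pdgfc both had a large ratio at the step between day 3 and day 5, and for both day 14 against day 5 had a log2 ratio below 0, at -0.36 and -0.86. Plau, the related urokinase that acts on PDGF-D, lay under the floor on days 2, 3 and 5. On day 14 it read 72.45, at least 1.69-fold above day 5 and short of a call.

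Sparc, a matrix protein that binds the B chain, was 3.79-fold higher on day 5 than on day 3. The integrin subunits Itgb5 and Itgav were 4.75-fold and 2.13-fold higher at that step, where only 1 of the 3 Itgav probe sets was measured. Lrp1, a co-receptor of the beta receptor, had its call earlier, being 3.82-fold higher on day 3 (400.3) than on day 2 (105). Itgb5, the matricellular protein Thbs1 and the proprotein convertase Pcsk7 were 3.32-fold, 2.76-fold and 2.18-fold higher on day 3 than on day 2, so this list had calls at both of the earlier steps. The lowest probe sets of Itgb5 and Thbs1 gave log2 ratios of 0.67 and 0.96 at that step, short of a call.

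Genes of signalling inside the cell formed the longest list. Of 31 genes on the array from 39 listed, 1 of 24 measured was called higher and none lower for day 3 against day 2, Stat3 at 2.01-fold, with another probe set short of a call at a log2 ratio of 0.91. Between days 5 and 3, 6 of 26 were higher and 1 was lower, with a median log2 ratio of 0.30. For day 14 against day 5 none of 28 was called, with a median of 0.12. The transcription factor Stat3 was 3.63-fold, the exchange factor Vav3 3.47-fold, the phosphoinositide 3-kinase subunit Pik3r2 2.98-fold and the kinase Jak2 2.61-fold higher on day 5 than on day 3. The measured probe sets of Vav3 ranged from 0.50 to 1.79 on the log2 scale. The lower gene was Nras, at 2.00-fold, named outside the rule as the only lower call. Plcg1 and Pik3r1, which bind the activated receptors, lay under the floor on days 3 and 5. On day 14 Pik3r1 read 84.3, at least 1.96-fold above day 5 and short of a call, while Plcg1 was still under the floor.

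Genes that dampen the receptors or the kinases below them had calls at each step. Of 16 genes on the array, 2 of 13 measured were higher and 1 was lower for day 3 against day 2. Day 5 had 4 of 13 higher than day 3, and day 14 had 4 of 14 higher than day 5, with none lower at either step. The medians of the log2 ratios were -0.17, 0.38 and 0.43. Spry1, a feedback inhibitor of receptor tyrosine kinases, was called higher at all 3 steps, by 2.05-fold, 3.54-fold and 2.73-fold. Its signal was 118, 241, 856 and 2334 on days 2, 3, 5 and 14.

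Rgs5, a regulator of G protein signalling known from pericytes, was at least 3.16-fold higher on day 3 than on day 2, 4.18-fold on day 5 than on day 3 and 3.52-fold on day 14 than on day 5. Only 1 of its 4 probe sets was measured at the first step, and its lowest measured probe set gave log2 ratios of 0.07 at the second and 0.49 at the third. The phosphatase Dusp6 was 3.25-fold higher on day 5 than on day 3 and Dusp1 2.38-fold, and Dusp1 was a further 2.54-fold higher on day 14. Slc9a3r1, a scaffold that binds the receptors' tails, was 3.07-fold higher on day 14 than on day 5, with its lowest probe set at a log2 ratio of 0.93. Ptpn2, a phosphatase that acts on receptor tyrosine kinases, was 2.10-fold lower on day 3 than on day 2 by its representing probe set, while its 3 measured probe sets ranged from -1.07 to -0.20 on the log2 scale, so the call rests on the choice of probe set.

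Early genes that PDGF is known to induce in cultured fibroblasts, and that many other stimuli induce too, were also read. Of 19 genes, 18 were measured at each step. Day 3 had 5 higher and 2 lower than day 2, day 5 had 8 higher and 1 lower than day 3, and day 14 had 5 higher and none lower than day 5. Their median log2 ratios were 0.63, 0.79 and 0.68. On day 3, Nr4a1 and Fos were 3.55-fold and 3.11-fold higher than on day 2 and Egr1 5.10-fold, while the chemokine Cxcl1 was 4.21-fold lower. On day 5, Egr2 was 8.41-fold, Ccl7 at least 3.06-fold, Ier3 2.68-fold and Fosb 2.47-fold higher than on day 3. On day 14, Nr4a1 was 4.42-fold, Ier2 3.20-fold, Junb 3.12-fold and Jun 2.36-fold higher than on day 5.

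**Figure D3:**
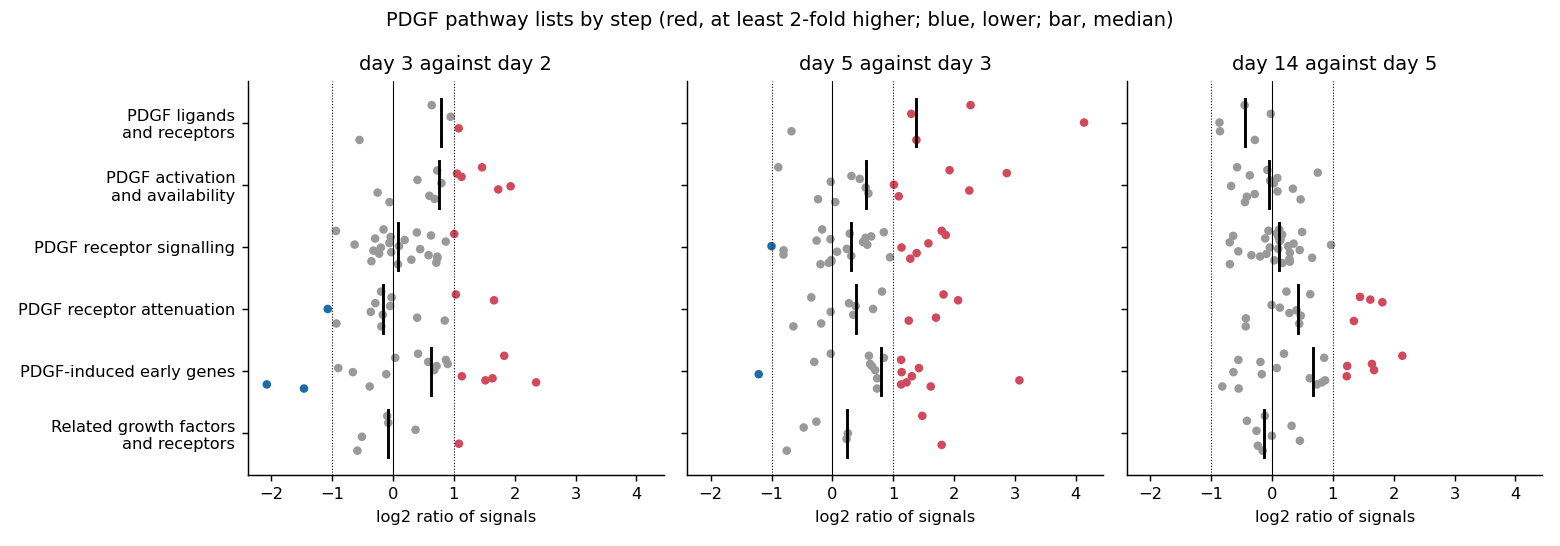
log2 ratio of signals, later over earlier day, for each measured gene of 6 PDGF-related lists at the 3 steps (red, at least 2-fold higher; blue, at least 2-fold lower; grey, not past 2-fold; black bar, median; dotted lines, 2-fold). The ligands and receptors have their red points mainly for day 5 against day 3, led by Pdgfc at 4.13, while the attenuation and early gene lists have red points for day 14 against day 5.

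The label of myogenic cells was set against marker genes. Myod1, a transcription factor of the muscle lineage, read 2272, 1405, 500.2 and 935 on days 2, 3, 5 and 14, and Cdh15, M-cadherin, read 350.0, 1606, 1884 and 1653. Myog, myogenin, was highest on day 3, with 261, 3876, 1839 and 1835 on the same days. Pax7, the transcription factor of satellite cells, read 35.7 on day 2, under the floor, and 59.4, 217 and 323 on the later days. Of 15 myogenic markers on the array, 10, 12, 14 and 14 were above the floor, and their summed signal was 6841, 13827, 15427 and 20978. Most of the list was thus above the floor on each array, and Pax7 was among the 5 markers at the floor on day 2.

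Markers of other cell types were counted here without the members. Of 22 fibroblast and fibro-adipogenic markers on the array, 5, 10, 14 and 15 were above the floor on days 2, 3, 5 and 14, with a summed signal of 1252, 1893, 8128 and 14709. Dpt and Dcn, matrix proteins of fibroblasts, read 32.5, 70.7, 1430 and 5877 and 505, 541, 1497 and 2935. Of 16 mural and smooth muscle markers, 3, 6, 10 and 11 were above the floor, with a summed signal of 1858, 5894, 13123 and 13431. This mural list shares Rgs5 with the attenuation genes and also holds genes that early muscle cells express, such as Acta2 and Des. Cspg4, the pericyte proteoglycan NG2, read 6.38, 64.4, 112 and 117, an order of days like that of Pdgfrb up to day 5.

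The other lists were smaller in signal. Of 19 macrophage and myeloid markers, 4, 9, 15 and 15 were above the floor, with a summed signal of 413, 1483, 4358 and 3725. Their receptor Csf1r read 20.2, 91.0, 316 and 269, and Ptprc, the pan-leukocyte antigen CD45, read 13.1, 14.1, 59.7 and 54.5. Of 17 endothelial markers, 1, 3, 5 and 12 were above the floor, with a summed signal of 359, 419, 1183 and 2179.8, while the defining genes Pecam1 and Cdh5 lay under the floor on all 4 arrays. Platelet and megakaryocyte markers, looked at since platelets store PDGF, had 2, 3, 3 and 4 of 10 genes above the floor and a summed signal of 247, 497, 867 and 1211. Pf4, the platelet chemokine, read 50.0, 112.8, 155 and 96.1. Of 9 Schwann cell and nerve markers, 3, 5, 4 and 5 were above the floor with a summed signal of 378, 794, 1594 and 3470, and Sox10 passed the floor on day 3 alone, at 46.3.

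Every one of these lists summed higher on days 5 and 14 than on days 2 and 3. The ligands and receptors other than Pdgfb also read higher then by their representing probe sets. All lists but the macrophage list also summed higher on day 14 than on day 5, and sums weigh bright genes most. The median log2 ratio of the measured markers at that step was 0.45 for the myogenic and 0.001 for the fibroblast list. It was 0.50 for the mural, 0.52 for the endothelial and 0.21 for the platelet list. For the Schwann cell and macrophage lists it was -0.17 and -0.10. Pdgfra and Pdgfrb gave log2 ratios of -0.02 and -0.45. The part of any of these cell types in the PDGF signals was not tested. In a bulk sample, more cells of a type and more RNA per cell cannot be told apart.

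**Figure D4:**
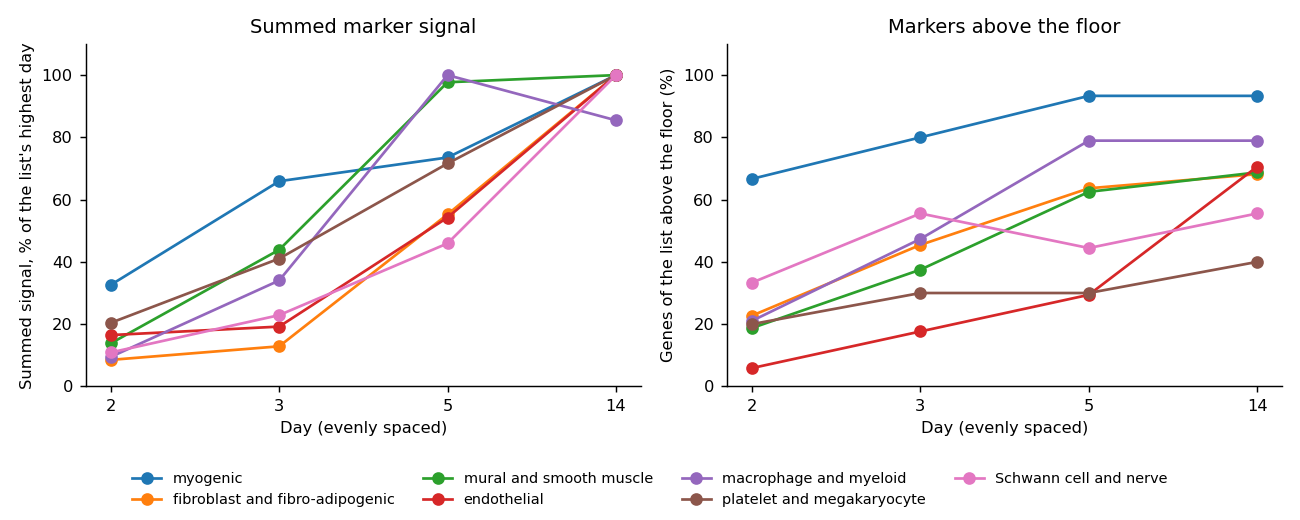
Left, summed signal of each cell type list as a percentage of its highest day; right, percentage of each list's genes on the array above the floor; the x axes give days 2, 3, 5 and 14 after cardiotoxin, evenly spaced, with 1 array a day. PDGF members are left out of the lists; mural and macrophage lists are near their highest sum on day 5, while the endothelial and fibroblast lists reach theirs on day 14.

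The genes whose course was most like that of each member were found by the root mean square difference of centred log2 signals over the 4 arrays, among 7925 genes that reached above the floor. Signals under the floor were set to it first, so differences below it do not count. For Pdgfc only 1 gene came within 0.25, Fap, a surface protease of activated fibroblasts, at 0.16. Fap read 16.7, 68.6, 1249 and 874 on days 2, 3, 5 and 14. It was followed by the smooth muscle protein gene Tagln at 0.30, the microfibril gene Mfap4 at 0.37, and Ccdc80 and Olfml3, which encode secreted proteins, at 0.45 and 0.48. Fap and Mfap4 belong to the fibroblast list above and Tagln to the mural list, so their signals are also in those sums. The closest member to Pdgfc was Pdgfrb, at 0.93.

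For Pdgfrb, 33 genes came within 0.25. The nearest were Adam12, a metalloprotease of fusing myoblasts and mesenchymal cells, at 0.13, Sparc at 0.15, the lysosomal membrane protein gene Scarb2 at 0.15, the exchange factor gene Arhgef25 at 0.16 and Sgce, epsilon-sarcoglycan, at 0.17. Adam12 read 34.9, 69.2, 408 and 249, the same order of days as Pdgfrb. For Pdgfra, which was at the floor on 2 arrays, 409 genes came within 0.25. The nearest were Clec7a, a receptor of myeloid cells, and Syt17, both at 0.02, then Jak2 at 0.03, Serpinb9 at 0.04 and Wdfy3 at 0.05.

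For Pdgfa, 187 genes came within 0.25, led by the transcription factor gene Nfatc1 at 0.06, Rbm15b and Bscl2 at 0.07, the growth hormone receptor gene Ghr at 0.07 and Dnajc1 at 0.09. For Pdgfb there were 66, led by Acsf3 at 0.09, Sdf2l1 at 0.11, Cmtm7 and Acaa2 at 0.13 and Tspan14 at 0.14. Acsf3 and Acaa2 encode mitochondrial enzymes of fatty acid metabolism. Among the members, Pdgfa and Pdgfra were the closest pair, at 0.27, and Pdgfb and Pdgfc the farthest apart, at 2.37. The closeness of Pdgfa and Pdgfra depends on the floor, to which Pdgfra was set on days 2 and 3. Before it, Pdgfra read 11.1 and 41.7 on those days, where Pdgfa read 403 and 275. With 4 arrays such likeness describes these courses only.

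**Figure D5:**
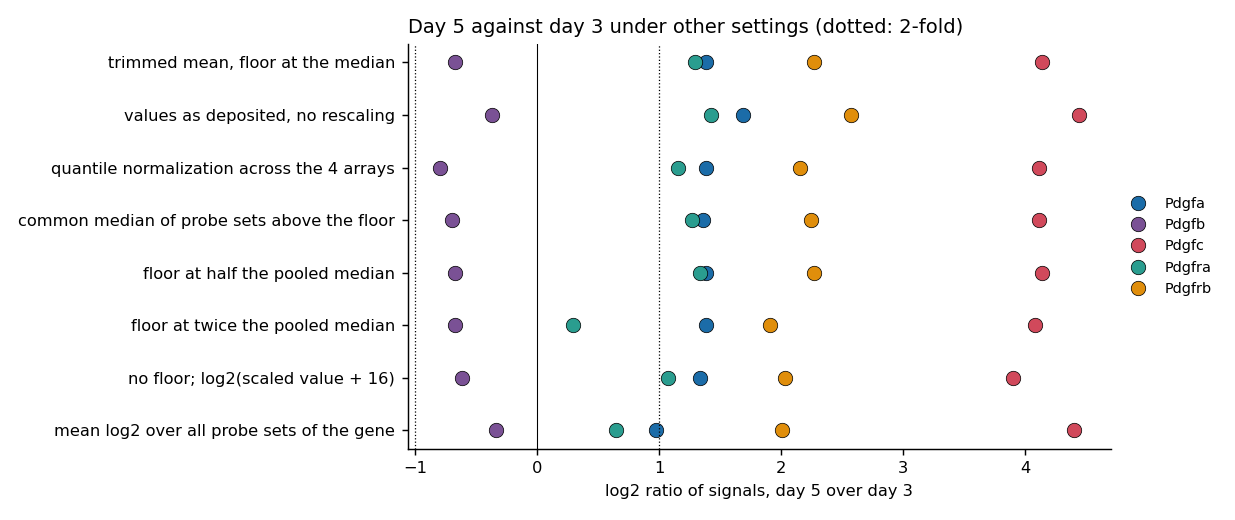
log2 ratio of signals, day 5 over day 3, of the 5 PDGF genes (coloured points) under the settings used in the text (top row) and 7 others; dotted lines mark 2-fold. Pdgfc lies between 3.90 and 4.44 and Pdgfrb between 1.90 and 2.57 in the other settings, while Pdgfra drops to 0.29 with the floor doubled and Pdgfb stays below 0.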

How the data were processed

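The values used are the deposited signal intensities, 1 for every probe set on every array, linear and between 0 and 15686, which the authors made with MAS5, per the submitters' processing notes. No source used here gives its settings or scaling target, and its detection calls stay out of the analysis. The label protocol names an assay for small samples, which amplifies RNA and favours probe sets near the 3′ end.

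Arrays were brought to 1 trimmed mean, with 2% of probe sets left out at each end, by factors of 0.997, 1.13, 0.917 and 0.976 on days 2, 3, 5 and 14. Values under the pooled median, 43.0, were set to it, and differences of log2 values between arrays were taken. The annotation lists 21084 probe sets, 20393 of them with a single symbol; the 691 with more than 1 were dropped, and 1606 others are unnamed here. The gene IDs of 20364 were found in the RefSeq table of GRCm38.p6 and no symbol changed. The number of arrays limits the precision, and 1 array a day allows no test. The steps were tested on simulated data with known fold changes, planted only in probe sets well above the floor. Calls of genes at or near the floor were not covered by it. Python 3.11.15, numpy 2.4.6 and pandas 2.3.3 were used.

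Beside all member probe sets, named genes are the 5 nearest in course to each member, up to 4 called genes of each pathway list and step, and defining cell type markers. Outside this rule, Pdgfd, Plau, Plcg1, Pik3r1, Nras, Kit, Flt3, Flt1, Flt4, Vegfa, Acta2, Des and the day 3 call of Plat were named after their values were seen. Ly6a was not used here. The members and the 13 lists were chosen with earlier results of these data known. The 9 alternatives, given in the closing section, change the scaling, the floor, the probe set or the fold.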

Additional observations from a re-analysis of the deposited data

How the results depend on the processing

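The number of members called was 1 for day 3 against day 2, and it depended most on the settings: it was 0 with the values as deposited, with quantile normalization, with the mean over a gene's probe sets and at 3-fold, and 3 with the floor halved, with log2(value + 16) in place of a floor and at 1.5-fold. For day 5 against day 3 the count of 4 was 2 with the mean over probe sets, where Pdgfa (log2 ratio 0.98) and Pdgfra (0.65) were lost, and 2 at 3-fold. It was 3 with the floor doubled, and 5 at 1.5-fold, 1 of them lower. For day 14 against day 5 the count of 0 was 1 with quantile normalization and with the mean over probe sets, and 2 at 1.5-fold. For day 14 against day 3 the count of 5 was 4 with the floor doubled, 2 at 3-fold and 2 with the mean over probe sets. Where the second probe set is at the floor on both days, that mean shrinks the log2 ratio by construction. The counts of 3 for days 14 and 5 against day 2 were both 2 with the floor doubled, with the mean over probe sets and at 3-fold. In each of these settings Pdgfra was lost. At 1.5-fold the count for day 5 against day 2 was 4, and under the other alternatives both counts were 3.

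Of 201 member ratios under 7 alternatives, 172 moved by less than the SD between probe sets, 29 by more, and no called ratio changed sign. Pdgfc for day 5 against day 3 ranged from 3.90 to 4.44 and Pdgfrb from 1.90 to 2.57, called in each of the 7. Pdgfra, at 0.29 to 1.42, was called in 5 of 7, and Pdgfb for day 3 against day 2, at 0.54 to 1.08, in 3 of 7. Among all called genes, the share called higher was 78.8%, 66.1% and 60.8% at the 3 steps in order, and 52.6%, 87.4% and 50.5% with the values as deposited. Between days 5 and 2 it was 63.4%, and 71.2% as deposited or 52.9% with quantile normalization, and between days 14 and 3 it was 58.6%, and 72.5% as deposited. No paired analysis was possible because each day has 1 array, and for the same reason no replicate could be left out.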

Other observations

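The relatives of the PDGF genes were mostly at low signal. Of 15 related growth factors and receptors, 13 were on the array, and 5, 5, 7 and 7 were above the floor on days 2, 3, 5 and 14. Kit, Flt3, Flt1 and Flt4, which encode receptor tyrosine kinases of the same or a near class, lay under the floor on all 4 arrays. Vegfc, a growth factor of lymphatic vessels that shares the fold of the PDGF chains, was at least 2.78-fold higher on day 5 (119) than on day 3, where it lay under the floor, and Csf1r, also a macrophage marker, was 3.47-fold higher at that step, with measured probe sets from 0.51 to 1.79 on the log2 scale. No gene of this list was called for day 14 against day 5, with 8 measured and a median log2 ratio of -0.13. Vegfa, an endothelial growth factor, read 72.8, 94.1, 67.8 and 84.9 on days 2, 3, 5 and 14 and was not past 2-fold at any step.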
